A study of Homo sapiens with 16 samples.

Results

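The genes that encode the MHC class II molecules and their helpers were examined in HEK293 cells, an established line derived from human embryonic kidney. The 10 genes were taken by symbol of their Ensembl identifier, out of 58302 gene identifiers in the counts, and all 10 were found. They were chosen from earlier results of these data, in which the siRNAG5 versus Ctrl values of Input and Polysome were known. Values of those contrasts are therefore given for the 10 genes as a description with no p-value, and counts of called genes stand there only beside the share over all genes.

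The study asked which mRNAs depend on Gemin5, an RNA-binding protein of the SMN complex that also acts in translation, for their association with polysomes. RNA was sequenced in 16 libraries, 4 in each of 4 groups. These were cytoplasmic lysates of control cells (Input Ctrl) and of cells treated with an siRNA against Gemin5 (Input siRNAG5), and pooled polysomal fractions of both (Polysome Ctrl, Polysome siRNAG5). The study's methods describe the 4 samples of a group as independent biological samples, numbered 1 to 4. All groups were the same line grown in DMEM. The study's methods name Lipofectamine for the siRNA and cycloheximide before lysis for polysome profiles, and no interferon is named. Input and Polysome RNA were taken from the same lysates. The labels call the control cells untreated, while the study's methods list a control siRNA and its account of the silencing names one for Ctrl, and which of these the Ctrl libraries received was not settled. A single siRNA sequence was used against Gemin5.

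MHC class II molecules are pairs of an alpha and a beta chain that carry peptides from endosomes to the surface of antigen-presenting cells, where CD4 T cells read them. CD74, the invariant chain, blocks the peptide groove until the pair reaches the endosome, HLA-DM then exchanges the leftover piece of CD74 for a peptide, and HLA-DO restrains HLA-DM. The coactivator CIITA switches these genes on. It binds no DNA itself but docks on RFX and NF-Y proteins that sit on the X and Y boxes of the class II promoters, and interferon gamma induces it in many cells that are not antigen-presenting.

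Of the 10 genes, 8 lie in the MHC on chromosome 6 (GRCh38, GENCODE v44). The alpha chain gene HLA-DRA was at chr6:32439878-32445046 on the plus strand, and the beta chain gene HLA-DRB1 at chr6:32577902-32589848 on the minus strand. CD74 was on chromosome 5 (chr5:150401637-150412969, minus strand) and CIITA on chromosome 16 (chr16:10866222-10943021, plus strand).

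Promoter sequences were available from RefSeq (GRCh38.p14) for 8 of the 10 genes, with 9 entries since HLA-DPA1 had 2 starts. Each entry ran from 250 bases before to 50 after the start. Both strands were searched for AGNNACNGA, a stretch of the X box, and for ATTGG, the core of the Y box, letters chosen with these promoters in view. The first was found in 6 of the 9 entries and in 15.3% of 35116 promoters, and the second in 7 of the 9 and in 34.6%. Both on the same strand, with 15 to 40 bases between them, were found in HLA-DRB1, HLA-DQB1, HLA-DMA and HLA-DOA and in 0.327% of all promoters. The stretches of these 4 genes are shown because they hold the sequence that class II promoters share. They are written 5′ to 3′ on the strand of the gene, with the 2 matches in capitals.
HLA-DRB1 (chr6:32589884-32589933, minus): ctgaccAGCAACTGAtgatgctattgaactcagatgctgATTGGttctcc
HLA-DQB1 (chr6:32666735-32666784, minus): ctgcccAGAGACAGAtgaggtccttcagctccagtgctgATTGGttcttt
HLA-DMA (chr6:32953166-32953216, minus): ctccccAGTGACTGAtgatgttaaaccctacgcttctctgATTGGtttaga
HLA-DOA (chr6:33009648-33009698, minus): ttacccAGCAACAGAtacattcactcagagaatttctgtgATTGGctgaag

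In these stretches 24 or 25 bases separated the matches, and the same letters ATTGG closed each of them. The next 4 promoters are shown because they differ from that layout. HLA-DMB and the second start of HLA-DPA1 held the X stretch without a Y box at that distance, HLA-DPB1 held ATTGG alone, and CD74 held it on the opposite strand, where it reads CCAAT.
HLA-DMB (chr6:32941063-32941122, minus): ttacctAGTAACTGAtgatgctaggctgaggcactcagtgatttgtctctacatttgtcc
HLA-DPA1 (chr6:33073695-33073754, minus): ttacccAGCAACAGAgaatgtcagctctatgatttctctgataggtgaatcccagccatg
HLA-DPB1 (chr6:33075841-33075901, plus): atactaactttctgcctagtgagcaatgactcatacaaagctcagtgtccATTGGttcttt
CD74 (chr5:150412953-150413013, minus): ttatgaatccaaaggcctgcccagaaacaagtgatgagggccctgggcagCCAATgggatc
The matches are letters in a window and were not measured as bound sites. HLA-DRA and CIITA had no promoter printed here.

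The depth of the libraries was 11145324 to 24511299 gene reads. The share of multi-mapped reads, which no gene received, was 4.88 to 6.04% in Input and 21.2 to 42.4% in Polysome. GEMIN5 itself was lower after silencing in both fractions, with a log2 fold change of -1.40 (SE 0.12) in Input and -1.44 (SE 0.21) in Polysome, and its libraries did not overlap between siRNAG5 and Ctrl. Of 8 genes listed for HEK293, VIM, KRT8, KRT18, NEFL, NEFM and GAPDH were abundant in all libraries. TUBB3 and PAX2 were not, with 25 and 324 reads over all libraries together. The 8 summed to 3470 to 11419 CPM (counts-per-million values, normalized with TMM over the 16 libraries). GAPDH, expressed in most cells, had 1581802 reads and VIM, the next highest, 175589. Liver genes stood apart by library, not by treatment alone. The 13 liver markers summed to 1351 and 1645 reads in Input Ctrl 4 and 3 and to 1411 to 1962 reads in the Polysome Ctrl libraries, and to 9 to 26 reads in each of the other 10. In Polysome, Ctrl 1, siRNAG5 1 and siRNAG5 4 stood apart from the other 5 libraries on the third principal component (8.26% of the variance).

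In control cells the class II genes fell into an abundant and a scarce group. Scaled by the length of the canonical transcript, HLA-DQB1, a DQ beta chain gene, had the highest level in all 4 groups, at 21.9 ± 1.24 CPM per kb (SD, n = 4) in Input Ctrl. HLA-DPA1, HLA-DRB1 and HLA-DMB followed at 6.02 ± 0.386, 5.85 ± 0.344 and 4.61 ± 1.14 CPM per kb, and neighbours among these 3 overlapped between libraries. HLA-DMA, the alpha chain of the peptide exchanger, stood lower at 2.35 ± 0.588 CPM per kb.

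The scarce genes included partners that the abundant chains need. HLA-DRA, the only alpha chain gene of the DR molecule, was at 0.258 ± 0.153 CPM per kb in Input Ctrl, far below its partner HLA-DRB1. HLA-DPB1, CD74 and HLA-DOA were at 0.340 ± 0.0352, 0.250 ± 0.289 and 0.240 ± 0.106 CPM per kb, and the neighbours from HLA-DPB1 to HLA-DOA in this order overlapped. HLA-DQA1, the partner of HLA-DQB1, had 9 reads over the 4 Input Ctrl libraries and at most 14 in any library of the study. CIITA was at the limit of detection, with 0 to 3 reads in each of the 16 libraries. It had 0 reads in all 4 Input siRNAG5 libraries, where 3 reads in the shallowest library would have been a level of 0.163 RPM (reads-per-million values, not normalized further). The same order held for the top gene after silencing, with HLA-DQB1 at 38.0 ± 1.47 CPM per kb in Input siRNAG5, 11.6 ± 1.31 in Polysome Ctrl and 15.9 ± 1.17 in Polysome siRNAG5.

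After Gemin5 silencing the 7 class II genes that passed the filter on low counts were 1.72 to 3.49 times as high in Input. In Polysome HLA-DMA, HLA-DPB1 and HLA-DOA were 2.52 to 2.74 times as high, HLA-DRB1, HLA-DQB1 and HLA-DPA1 were 1.41 to 1.59 times as high, HLA-DMB was 1.16 times as high, and CD74 was 0.134 times as high. HLA-DRB1 and HLA-DMB were not called in Polysome. In bulk RNA, more cells that express a gene and more RNA per cell cannot be told apart. A gene was called where edgeR's quasi-likelihood test gave a Benjamini-Hochberg adjusted p below 0.05 over all genes tested and the log2 fold change was beyond 0.5.

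In Input, 7 of the 10 genes passed that filter and all 7 of those were called higher, where 10.5% of the 14134 genes tested were called higher and 6.02% lower. The siRNAG5 libraries lay above all Ctrl libraries for 6 of the 10 genes, against 15.1% of the genes tested. The median log2 fold change was 0.98 over the 7 and 0.04 over all genes tested. Nothing is read from these counts, since the genes were chosen with this contrast known. HLA-DRA, CD74 and CIITA did not pass the filter.

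HLA-DQB1 was measured at 36.4, 32.3, 35.6 and 36.5 CPM in Input Ctrl 1 to 4 and at 64.3, 61.2, 58.9 and 59.7 CPM in Input siRNAG5 1 to 4. In Polysome it was at 15.5, 19.4, 19.3 and 20.1 CPM in Ctrl and at 27.5, 24.6, 23.4 and 26.6 CPM in siRNAG5. The siRNAG5 libraries were above the Ctrl libraries in both fractions with no overlap, and the log2 fold change was 0.81 (SE 0.08) in Input and 0.50 (SE 0.13) in Polysome.

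HLA-DRB1, the DR beta chain gene, was at 7.06, 7.11, 7.74 and 6.73 CPM in Input Ctrl and at 17.2, 15.0, 16.3 and 15.0 CPM in Input siRNAG5. In Polysome its levels were 6.08, 5.49, 4.35 and 7.32 CPM in Ctrl and 8.10, 8.39, 7.51 and 7.61 CPM in siRNAG5. The groups were well apart in Input and only just apart in Polysome, where the highest Ctrl library came close to the lowest siRNAG5 library. The log2 fold change was 1.16 (SE 0.11) in Input and 0.49 (SE 0.18) in Polysome. HLA-DRB5 is a close copy of HLA-DRB1, so the split of reads between them is uncertain.

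HLA-DPA1, the DP alpha chain gene, was at 10.4, 10.3, 9.34 and 10.9 CPM in Input Ctrl and at 20.8, 20.6, 15.9 and 18.1 CPM in Input siRNAG5. In Polysome it was at 5.08, 6.11, 5.19 and 6.61 CPM in Ctrl and at 9.17, 9.32, 10.4 and 6.55 CPM in siRNAG5. Polysome siRNAG5 4 fell just below Polysome Ctrl 4, so the groups overlapped there. The log2 fold change was 0.89 (SE 0.11) in Input and 0.67 (SE 0.19) in Polysome.

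HLA-DPB1, its beta chain partner, had the largest Input fold change of the 7 genes that passed the filter. It was at 1.29, 1.20, 1.42 and 1.52 CPM in Input Ctrl and at 5.99, 4.23, 3.88 and 4.79 CPM in Input siRNAG5. In Polysome it was at 0.333, 0.961, 0.781 and 0.944 CPM in Ctrl, from 4 to 14 reads, and at 1.90, 1.96, 2.31 and 1.48 CPM in siRNAG5. The groups were apart in both fractions, and the log2 fold change was 1.80 (SE 0.21) in Input and 1.36 (SE 0.31) in Polysome. HLA-DPA1 and HLA-DPB1 share 96 exonic bases on opposite strands, and the strand setting of the counting was not given in the sources used here. On the same strand, HLA-DMA and HLA-DMB share 160 and 438 exonic bases with another counted gene, and CIITA shares 2378. Reads aligned to more than 1 gene were kept out, and the part of this in the levels was not tested.

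**Figure D1:**
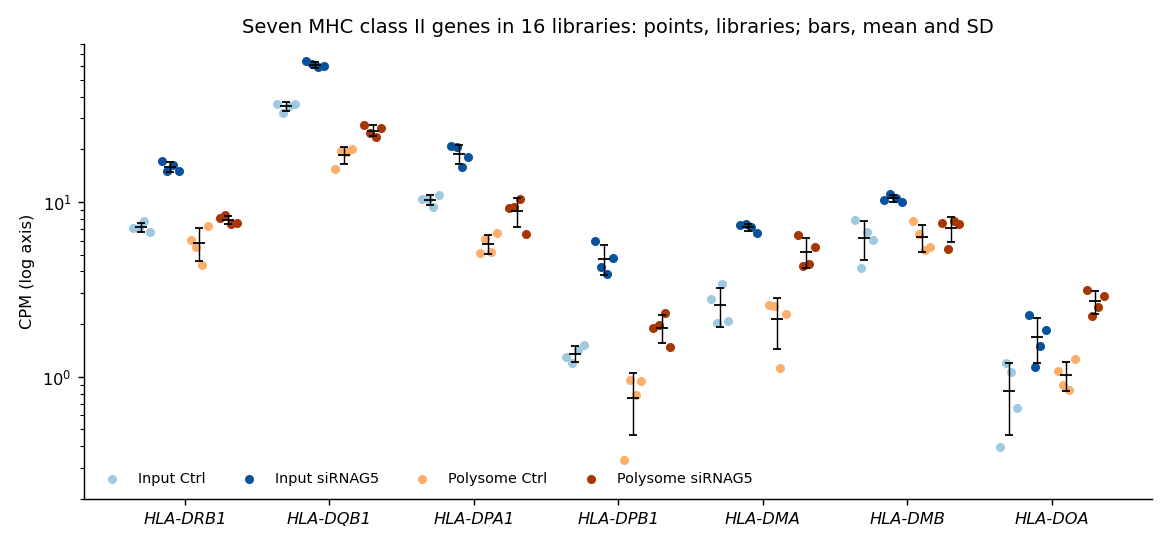
Levels of 7 class II genes in each library, in CPM on a log axis; points are libraries, coloured by group, and bars give the mean and SD of the 4 libraries of a group. HLA-DQB1 is the highest in every group, and the Input siRNAG5 libraries lie above the Input Ctrl libraries for all genes shown but HLA-DOA, whose groups overlap.

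The genes of the peptide exchanger and its inhibitor differed in how far the Polysome levels moved. HLA-DMA was at 2.79, 2.02, 3.38 and 2.08 CPM in Input Ctrl and at 7.33, 7.45, 7.17 and 6.63 CPM in Input siRNAG5. In Polysome it was at 2.58, 2.54, 1.12 and 2.28 CPM in Ctrl and at 6.46, 4.31, 4.41 and 5.53 CPM in siRNAG5. The groups did not overlap in either fraction, and the log2 fold change was 1.49 (SE 0.17) in Input and 1.34 (SE 0.27) in Polysome.

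HLA-DMB, the beta chain of HLA-DM, was at 7.86, 4.19, 6.76 and 6.06 CPM in Input Ctrl and at 10.3, 11.1, 10.6 and 9.99 CPM in Input siRNAG5. In Polysome it was at 7.74, 6.52, 5.30 and 5.51 CPM in Ctrl and at 7.58, 5.39, 7.79 and 7.42 CPM in siRNAG5. Here the groups were apart in Input and overlapped in Polysome. Its log2 fold change was 0.78 (SE 0.14) in Input and 0.21 in Polysome (95% interval -0.22 to 0.64).

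HLA-DOA, the alpha chain of HLA-DO, was at 0.398, 1.20, 1.07 and 0.663 CPM in Input Ctrl, from 4 to 16 reads, and at 2.26, 1.14, 1.49 and 1.84 CPM in Input siRNAG5. In Polysome it was at 1.08, 0.893, 0.837 and 1.26 CPM in Ctrl and at 3.13, 2.23, 2.52 and 2.91 CPM in siRNAG5. The groups overlapped in Input through Input Ctrl 2 and Input siRNAG5 2 and were apart in Polysome. The log2 fold change was 0.98 (SE 0.32) in Input and 1.45 (SE 0.24) in Polysome. In Input its call was lost without Input Ctrl 1 and with Input Ctrl 3 and 4 left out together, leaving 6 called genes in each case.

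In Polysome, 8 of the 10 genes passed the filter. Of these HLA-DQB1, HLA-DPA1, HLA-DPB1, HLA-DMA and HLA-DOA were called higher and CD74 lower, where 3.95% of the 14420 genes tested were called higher and 4% lower. The siRNAG5 libraries lay above all Ctrl libraries for 5 of the 10 genes, against 8.29% of the genes tested, and nothing is read from these counts either. The 5 calls rested on few libraries. With 1 library left out, 1 to 4 of them remained, and the count was 1, that of HLA-DOA, without Polysome Ctrl 2. It was 2 without siRNAG5 1, 2 or 3, and 3 without Ctrl 1, 3 or 4. Without the 3 libraries that stood apart, 4 were called, HLA-DQB1 being lost at a log2 fold change of 0.35. With the replicate number as a block 3 were called.

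**Figure D2:**
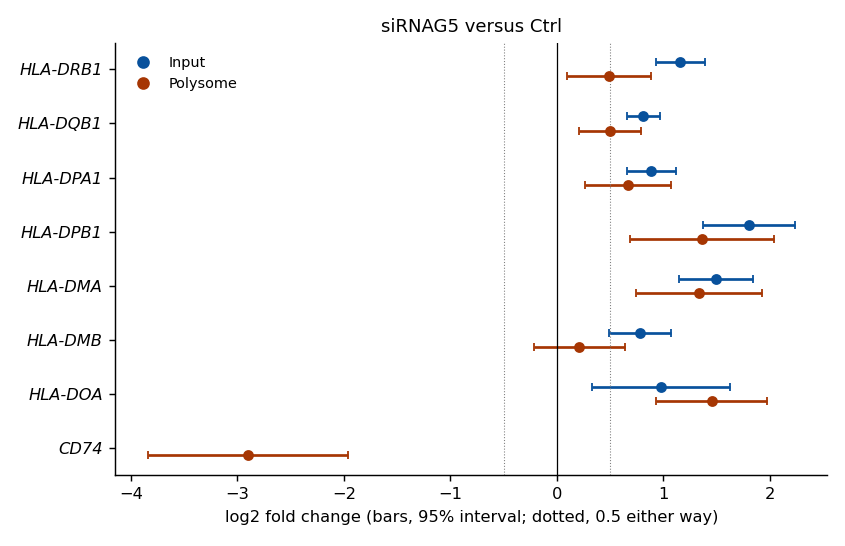
Log2 fold change of siRNAG5 versus Ctrl for the class II genes that passed the filter, in Input and in Polysome; points are estimates, bars 95% intervals and dotted lines 0.5 either way. The 7 Input estimates lie between 0.78 and 1.80, and the CD74 estimate in Polysome, at -2.90, lies on the other side of 0.

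CD74 and HLA-DRA had fewer reads in Polysome after silencing, unlike the other chain genes. CD74 had 22, 11, 30 and 16 reads in Polysome Ctrl 1 to 4 and 2, 5, 7 and 2 reads in Polysome siRNAG5 1 to 4, which is 1.53 RPM over the Ctrl libraries (Poisson 95% interval 1.21 to 1.91) and 0.254 over the siRNAG5 libraries (0.145 to 0.413). These intervals cover counting error only. The groups did not overlap, and the log2 fold change was -2.90 (SE 0.43). In Input it had 0, 0, 9 and 9 reads in Ctrl and 2, 6, 8 and 5 in siRNAG5, and the groups overlapped.

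HLA-DRA had 9, 5, 10 and 10 reads in Polysome Ctrl and 1, 2, 5 and 2 reads in Polysome siRNAG5. Over the group this came to 0.658 RPM in Ctrl (0.456 to 0.920) and 0.159 in siRNAG5 (0.0762 to 0.292). In Input it had 2, 2, 4 and 6 reads in Ctrl and 6, 5, 6 and 6 in siRNAG5, which came to 0.234 (0.128 to 0.393) and 0.275 (0.174 to 0.412). The Polysome groups were apart and the Input groups overlapped, and HLA-DRA passed the filter in no comparison.

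Among the control libraries, CD74 reads were found only in those with 1351 or more liver marker reads. The 2 Input Ctrl libraries with liver reads, 3 and 4, held all 18 CD74 reads of their group, and all 4 Polysome Ctrl libraries held both. The counts did not rise together within Polysome Ctrl, where CD74 was highest in Ctrl 3 (30 reads) and the liver sum was lowest there (1411). Each Input siRNAG5 library held 2 to 8 CD74 reads, with 16 to 24 liver marker reads. Albumin (ALB) had 0, 0, 585 and 414 reads in Input Ctrl 1 to 4, at most 1 in Input siRNAG5, 450 to 584 in Polysome Ctrl and at most 2 in Polysome siRNAG5. The lysozyme gene LYZ, of myeloid cells, had 102 reads over Polysome Ctrl, 9 over Input Ctrl, 0 over Input siRNAG5 and 1 over Polysome siRNAG5, and PTPRC, which marks blood cells, had 12, 1, 0 and 0. The part of these in the CD74 and HLA-DRA values was not tested, and in Polysome the liver reads and the control condition cannot be told apart.

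Other markers of antigen-presenting cells were low. The 12 myeloid and dendritic markers summed to 0.398 to 1.42 CPM in Input Ctrl, 0.866 to 1.24 in Input siRNAG5, 1.85 to 4.25 in Polysome Ctrl and 0.369 to 0.666 in Polysome siRNAG5, with 2 of the 12 at 0 throughout, the dendritic cell genes CLEC9A and CD1C. Of the B cell markers, MS4A1 had 1 read in all libraries together and BLK had 0. The 6 T cell markers summed to 0.684 to 2.28 CPM in any library. Without Input Ctrl 3 and 4, the Input libraries with liver reads, 6 of the 7 Input calls remained, HLA-DOA being the one lost.

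**Figure D3:**
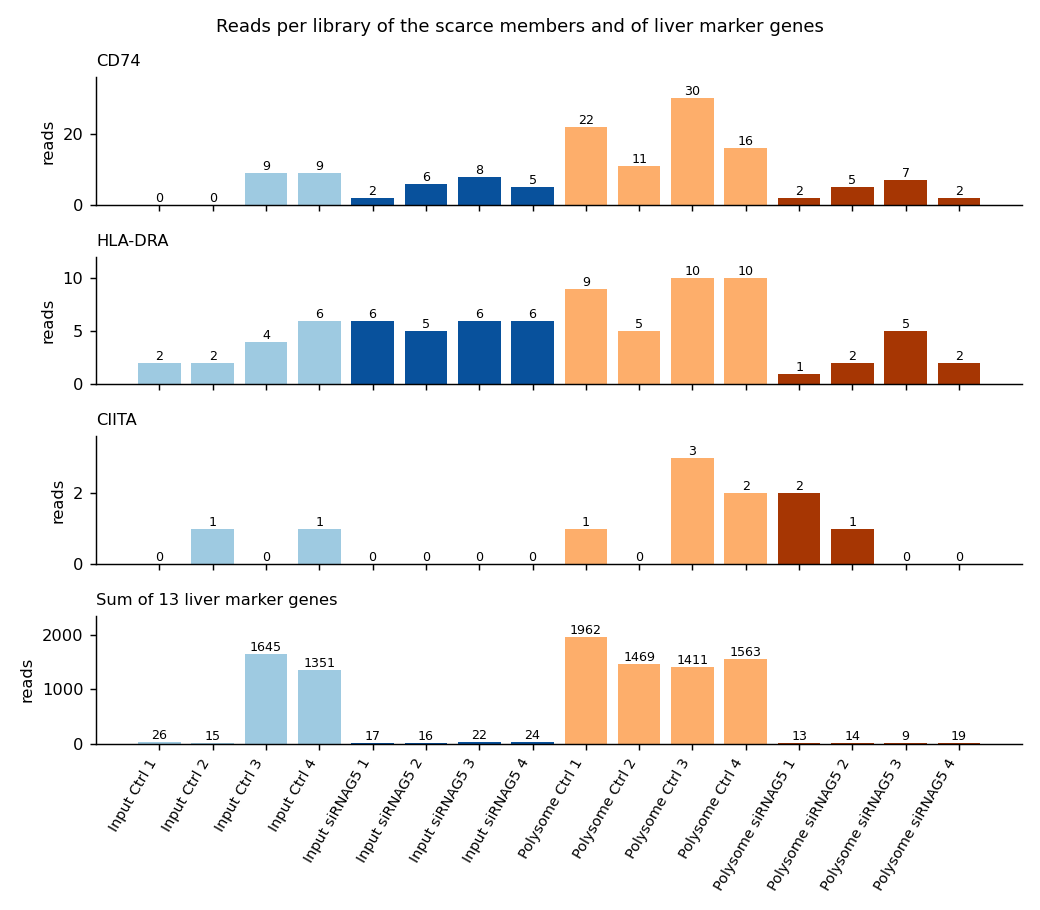
Reads per library of CD74, HLA-DRA and CIITA and the summed reads of 13 liver marker genes, with the count written above each bar. CD74 reads are highest in Polysome Ctrl (11 to 30), and liver reads of 1351 or more are found in Input Ctrl 3 and 4 and Polysome Ctrl 1 to 4 alone.

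The association of class II mRNAs with polysomes was then compared between fractions within each condition. These tests were not used to choose the genes, though they share the Input and Polysome libraries with the contrasts that were. In control cells HLA-DQB1 and HLA-DPA1 were lower in Polysome than in Input. The log2 fold change was -0.91 (SE 0.12, edgeR adjusted p = 2.13e-05) for HLA-DQB1 and -0.82 (SE 0.15, edgeR adjusted p = 0.000326) for HLA-DPA1, and their Polysome libraries all lay below their Input libraries. HLA-DPB1 was at -0.80 and missed the threshold (edgeR adjusted p = 0.0525), although it passed without Polysome Ctrl 2 (-0.95, edgeR adjusted p = 0.0429). Of the 8 genes tested, 2 were called lower and 1 higher, where 18.8% of the 13666 genes tested were called lower and 20.8% higher.

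The gene called higher was CD74, at 1.77 (SE 0.61, edgeR adjusted p = 0.0263). This call was lost with DESeq2 (adjusted p = 0.194), without Input Ctrl 1 (edgeR adjusted p = 0.0727) and without Input Ctrl 2 (edgeR adjusted p = 0.0761), the libraries with 0 CD74 reads. HLA-DRB1, HLA-DMA, HLA-DMB and HLA-DOA did not pass, with log2 fold changes of -0.30 (95% interval -0.68 to 0.08), -0.27 (-0.89 to 0.34), 0.03 (-0.41 to 0.46) and 0.25 (-0.50 to 0.99).

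In Gemin5-depleted cells the DP, DQ and DR chain genes that were tested were lower in Polysome than in Input. HLA-DPB1 was at -1.21 (SE 0.21, edgeR adjusted p = 0.000493), HLA-DQB1 at -1.18 (SE 0.10, edgeR adjusted p = 3.50e-06), HLA-DPA1 at -1.0 (SE 0.16, edgeR adjusted p = 0.000333) and HLA-DRB1 at -0.92 (SE 0.12, edgeR adjusted p = 6.25e-05). For these 4 genes, and for HLA-DMA and HLA-DMB, all Polysome libraries lay below all Input libraries in CPM. HLA-DRA did so too, but from 1 to 5 reads in Polysome and 5 or 6 in Input. The share of all genes with such a gap was not computed, so nothing is read from it. In Ctrl the values of the 4 genes named with values here were also negative, and no difference between the conditions was called. Of the 7 genes tested 4 were called lower, where 21.2% of the 14795 genes tested were called lower and 23.9% higher.

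The HLA-DM genes were also lower in value but were not called. HLA-DMA was at -0.39 (SE 0.16, edgeR adjusted p = 0.0612) and HLA-DMB at -0.49 (SE 0.15, edgeR adjusted p = 0.0137), which is short of 0.5 in size. With the replicate number as a block HLA-DMB was called lower, at -0.50 (edgeR adjusted p = 0.0291). Without the Polysome libraries that stood apart HLA-DMA was called lower, at -0.53 (edgeR adjusted p = 0.00497). HLA-DOA, by contrast in sign, was called higher in Polysome, at 0.75 (SE 0.23, edgeR adjusted p = 0.0161), and lost the call without Input siRNAG5 2 or 3 (edgeR adjusted p = 0.0509 and 0.0535). The share of multi-mapped reads was higher in all Polysome than in all Input libraries, and its part in these values was not tested.

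**Figure D4:**
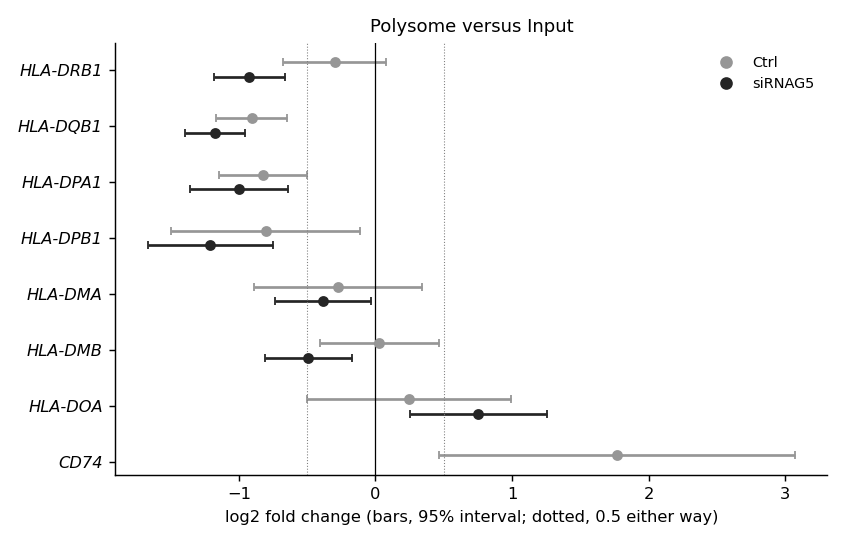
Log2 fold change of Polysome versus Input for the class II genes that passed the filter, in Ctrl and in siRNAG5; points are estimates, bars 95% intervals and dotted lines 0.5 either way. The binding chain genes lie below 0, between -0.30 and -1.21, while HLA-DOA lies above 0 in both conditions, at 0.25 and 0.75.

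The change after silencing was compared between the fractions in one fit of the 16 libraries. This difference is made from the contrasts with which the genes were chosen, so their values are a description with no p-value. None of the 8 genes tested was called by edgeR or DESeq2, and among all 14958 genes tested edgeR called 0 higher and 0 lower (0% in either direction). At an unadjusted p below 0.05 there were 701 genes lower and 388 higher, and DESeq2 called 11 lower and 18 higher. The difference was -0.70 for HLA-DRB1 (95% interval -1.11 to -0.28), -0.59 for HLA-DMB (-1.12 to -0.07), -0.48 for HLA-DPB1 (-1.25 to 0.29) and -0.34 for HLA-DQB1 (-0.64 to -0.04). For HLA-DPA1 it was -0.25 (-0.69 to 0.19), for HLA-DMA -0.18 (-0.86 to 0.50) and for HLA-DOA 0.44 (-0.43 to 1.30).

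CD74 had the widest gap, at -2.53 (95% interval -4.54 to -0.53). With Input Ctrl 3 and 4 left out together it was called lower, and the remaining Input Ctrl libraries then held 0 CD74 reads.

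Most other class II loci had few reads. Of 12 listed, 10 had an identifier, 4 of these had 0 reads in every library (HLA-DRB9, HLA-DQB2, HLA-DQB1-AS1 and HLA-DPA2), and HLA-DRB5 alone passed the filter. This list and those below were also chosen with earlier results of these data known. Their siRNAG5 versus Ctrl values are therefore given as a description, with no p-value of a single gene. HLA-DRB5 was called higher in Input, at 1.35 on the log2 scale (SE 0.32), from 6 to 11 reads in Ctrl to 24 to 30 in siRNAG5. In Polysome it was called higher at 1.37 (SE 0.38), a call that was lost when any library was left out. HLA-DQA1 had 9 reads over Input Ctrl, 32 over Input siRNAG5, 11 over Polysome Ctrl and 28 over Polysome siRNAG5.

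Among 10 factors that act on class II promoters, all tested, 3 were called higher in Input and 1 in Polysome, where 10.5% and 3.95% of all genes tested were. DESeq2 called 2 higher in Input, without EP300, and in Polysome KAT2B higher and RFXANK, an RFX subunit, lower. KAT2B, an acetyltransferase that modifies CIITA and histones, was called higher in both fractions, at 0.91 (SE 0.17) in Input and 1.01 (SE 0.15) in Polysome. The acetyltransferase genes CREBBP and EP300 were called higher in Input, at 0.56 (SE 0.17) and 0.50 (SE 0.16). They were at -0.03 and -0.25 in Polysome. With 1 library left out the Input call remained in 6 of 8 fits for CREBBP and in 3 of 8 for EP300. RFX5, the DNA-binding subunit of RFX, was at 0.09 (SE 0.09) in Input and 0.34 (SE 0.13) in Polysome and was not called in either. The median over the 10 was 0.04 in Input and 0.03 in Polysome, as over all genes, with values in both directions. In Input 6 were positive and 4 negative. By edgeR an unadjusted p below 0.05 was found for 7 of the 10 in Input and 4 in Polysome.

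No gene of the interferon gamma list was called in either fraction, out of 7 tested of 12 listed. Over all genes tested, 10.5% were called higher and 6.02% lower in Input, and 3.95% and 4% in Polysome. With 7 genes tested, 0 calls is near these shares, and nothing is read from it. The receptor gene IFNGR1 was at -0.21 (SE 0.08) in Input and 0.04 (SE 0.13) in Polysome, and the transcription factor IRF1 at -0.03 (SE 0.15) and -0.11 (SE 0.24). By edgeR an unadjusted p below 0.05 was found for 4 of the 7 in Input and 0 in Polysome, and DESeq2 called 0 in either. IDO1, a strongly induced interferon gamma target, had 0 reads in every library and CXCL10 at most 3.

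The lysosomal list that feeds class II with peptides held no called gene. Of its 10 genes 7 were tested and 0 called in either fraction by edgeR or DESeq2. Over all genes tested edgeR called 10.5% higher and 6.02% lower in Input, and 3.95% and 4% in Polysome. Nothing is read from 0 calls among 7 genes. By edgeR 3 were at an unadjusted p below 0.05 in Input and 2 in Polysome, and the medians were -0.07 and -0.15. IFI30, the lysosomal thiol reductase, had 1 read in all libraries and MARCHF1, a ligase that removes class II from the surface, had 0. Of 5 partners of CD74, 4 were tested, with 0 called in Input and 1 called lower in Polysome. Over all genes tested, 4% were called lower in Polysome, and nothing is read from 1 call. The gene called was DDT, a relative of the cytokine MIF, at -0.87 in Polysome (SE 0.24) and -0.48 in Input. Its Polysome call remained in 2 of 8 fits with 1 library left out.

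The class I genes serve the other branch of antigen presentation, for CD8 T cells. Of 12 listed, 10 were tested, and 1 was called higher in each fraction. That share was near the 10.5% of all genes in Input, while 3.95% of all genes were called higher in Polysome. The class I gene called was PSMB9, a subunit of the immunoproteasome whose gene lies in the class II region. It was at 1.08 (SE 0.17) in Input and at 1.33 (SE 0.30) in Polysome. The Polysome call remained in 5 of 8 fits with 1 library left out. The class I median was 0.35 in Input and 0.10 in Polysome, where the median over all genes was 0.04 and 0.03. NLRC5, the class I counterpart of CIITA, had 1 to 15 reads and was not tested after silencing.

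**Figure D5:**
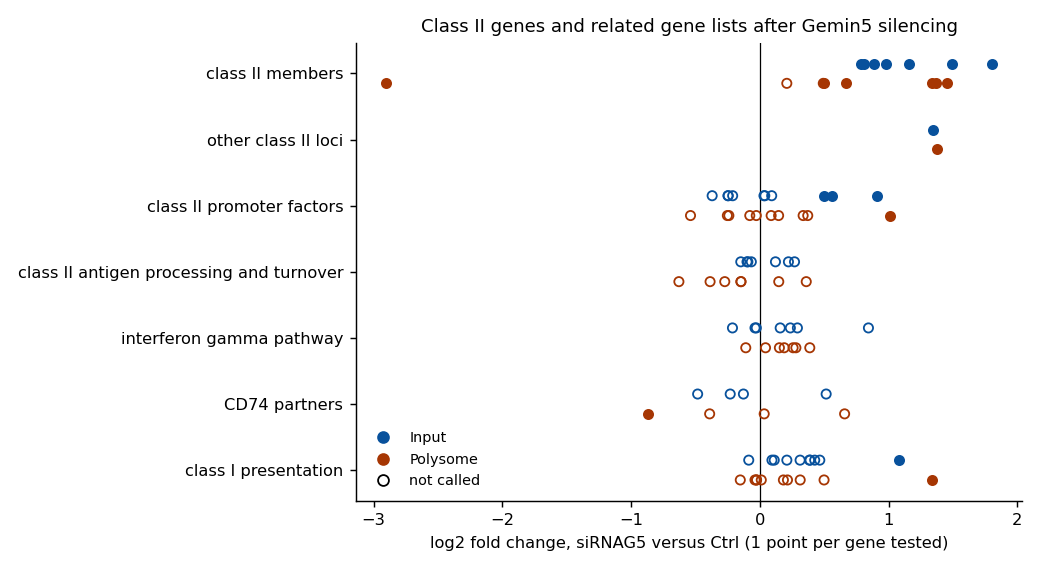
Log2 fold change of siRNAG5 versus Ctrl for each tested gene of the class II list and 6 related lists, in Input and Polysome; filled points were called and open points were not. Class II points lie between 0.78 and 1.80 in Input, while the interferon gamma and antigen processing lists hold open points alone.

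Across the 16 libraries most of the class II genes shared a profile. The mean of the standardized log2 CPM of the 8 genes that passed the filter of all libraries had a Pearson r of 0.96 with HLA-DRB1, 0.93 with HLA-DPB1, 0.90 with HLA-DMA, 0.88 with HLA-DPA1, 0.84 with HLA-DQB1 and 0.84 with HLA-DMB, which are themselves part of it. HLA-DOA had 0.47 and CD74 -0.26. Among 14888 genes outside the lists the most alike were DDB2 (0.94), ADAMTS7 (0.94), PRPF40B (0.94), APOE (0.94), RENBP (0.93), GALNT16 (0.93), LETMD1 (0.93), HSD17B14 (0.93), ZNF467 (0.92) and BCAM (0.92). All points share the 4 groups and their depth, so the values describe a pattern over groups. DDB2, a DNA damage recognition gene, had mean levels of 43.7, 73.8, 33.7 and 46.8 CPM in Input Ctrl, Input siRNAG5, Polysome Ctrl and Polysome siRNAG5, the same order as HLA-DQB1 for the highest and the lowest group.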

How the data were processed

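Cytoplasmic (Input) and pooled polysomal RNA of HEK293 cells was made into stranded poly(A) libraries. The authors aligned reads to GRCh38 with STAR 2.5.3a and used QoRTs to count them. The deposited values are raw counts per gene, 1 table per library. The strand setting of the counting was not given in the sources used here. Reads aligned to several places (4.88 to 42.4% of a library), to no gene (0.667 to 1.33%) or to more than 1 gene (4.14 to 7.41%) were kept out of library sizes and tests. Of 58302 identifiers 57532 were named by GENCODE v44, a later annotation than the authors', which also gave coordinates and lengths.

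Groups and replicate numbers came from the labels. Each comparison was fitted over all genes with edgeR 4.0.16 in R 4.3.3 (filterByExpr with a minimum count of 10, TMM, quasi-likelihood, no covariate), on its own 8 libraries, and the difference between fractions on all 16, with Benjamini-Hochberg adjustment. The script was checked on simulated counts. CPM values used TMM factors of all 16 libraries. Poisson intervals were exact. Alternatives were DESeq2 1.42.0, RLE size factors, no filter, a replicate block, 1 fit of all libraries and libraries left out. The class II genes and all lists were chosen with earlier results of these data known. Outside the class II genes, a listed gene was named if called in Input or Polysome, at most 4 a list, or if it defines its pathway (RFX5, NLRC5, IFNGR1, IRF1), and otherwise for its read count after values were seen. Some listed genes are not reported here.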

Additional observations from a re-analysis of the deposited data

Results flagged for a closer look

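HLA-DMB was at 5.39 CPM in Polysome siRNAG5 2, below the 7.42 to 7.79 CPM of the other 3 libraries of its group, from 140 reads. Its gap to the nearest library was 0.847 of the group's range, above the 95% critical value of Dixon's test for 4 samples. This was 1 of 84 groups of 4 libraries examined, and chance marks about 1 in 20 such groups.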

How the results depend on the processing

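Of 1391 log2 fold changes of named genes recomputed under alternatives, 1216 kept their direction and call, 88 lost a call, 25 gained one, 62 uncalled values changed sign and 0 called values did. In Input 6 or 7 class II genes were called higher under all of these. In Polysome the 5 called higher became 3 with RLE size factors and 3 with the replicate block, and 1 to 4 with 1 library left out. The 1 called lower became 2 without the filter, when HLA-DRA was tested too, and 1 to 2 with 1 library left out. For Polysome versus Input in Ctrl, the 1 called higher became 0 with DESeq2 and 0 to 1 with 1 library left out; in siRNAG5 it was 0 to 1. For the difference between fractions, 0 called lower became 1, CD74, with Input Ctrl 3 and 4 left out together. That setting, and the one leaving out Polysome Ctrl 1, siRNAG5 1 and siRNAG5 4 together, were chosen after seeing the data. The cause of these changes was not tested. Input and Polysome RNA came from the same lysates by the study's methods, but the labels do not say that a number marks a lysate. Same-number correlations of deviations ran from -0.21 to 0.22 between fractions and from -0.53 to 0.48 between conditions, so no pairing was assumed. The block called HLA-DMB lower in Polysome than in Input in siRNAG5. For siRNAG5 versus Ctrl in Polysome, HLA-DPA1 and HLA-DQB1 lost their call with the block. Over all genes, calls in Polysome were 569 higher and 577 lower, against 840 and 1101 with DESeq2, 1077 and 1520 in 1 fit of all libraries and 825 and 941 without the filter. Depth limits CIITA, HLA-DRA and CD74, with 0 to 30 reads each per library.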
